A study of Mus musculus with 2 samples.

Results

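Endothelial cells line the inside of blood and lymphatic vessels. In 2 droplet single-cell RNA libraries from the back of the mouse eye, holding retinal pigment epithelium (RPE) and adjoining choroid, 50 barcodes carried endothelial marker genes. They are 50 of 8331 barcodes that passed limits of 500 genes and 25% mitochondrial counts, out of 8676 in all. A barcode is the tag of 1 droplet and stands for 1 cell, and a UMI is 1 counted RNA molecule. The 50 were chosen by their summed level of 6 genes, Pecam1, Cdh5, Plvap, Egfl7, Esam and Emcn, which had to reach 10 UMIs per 10000 (CP10K) from at least 3 of the genes. The summed level of 5 RPE genes, Rpe65, Rlbp1, Rgr, Lrat and Rdh5, had to be under 100 CP10K. Since measured values chose these barcodes, the levels of those 11 genes are given as a description only.

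The PBS library came from C57BL/6J mice given phosphate-buffered saline, and the NaIO3 library from C57BL/6J mice given the same volume with sodium iodate at 20 mg/kg into a vein, an oxidant that is widely used to injure the RPE. Each group was a pool of the eyes of 6 mice, and the treatment lasted 7 days per the labels. After 30 minutes in 2% dispase II the front of the eye and the retina were taken off, and brownish hexagonal cells were picked under a microscope, so that vessel cells in these libraries are those that came along with cells picked for the look of the RPE. There was 1 library per group, so no difference below has a replicate check and none was tested. The 95% intervals are exact and speak of counting error alone.

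The choriocapillaris is the capillary bed under the RPE. Its endothelium is thin and fenestrated, the fenestrae are spanned by diaphragms of the protein PLVAP, and it depends on VEGF from the RPE. Retinal vessels, in contrast, form a barrier with tight junctions and dedicated transporters, arteries carry elastic matrix genes, and the transcription factor PROX1 and the VEGF-C receptor encoded by Flt4 are known from lymphatic endothelium and from the endothelium of Schlemm's canal.

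Promoter sequences are shown for 3 genes, a gene of the rule and 2 receptor genes that the description below turns on. Emcn codes for endomucin, a sialomucin of capillary and venous endothelium, and is one of the genes of the rule. Flt1 and Flt4 code for 2 receptors of the VEGF family whose levels differed between the sets described below. Each line gives the 250 bases before the RefSeq start, 5′ to 3′ on the gene's strand (RefSeq, GRCm38.p6). Capitals mark the letters CTTCCTG, which is CAGGAAG on the other strand and a core sequence known for ETS factors, in Emcn, and the TATA box letters TATAAA in Flt1.
Emcn: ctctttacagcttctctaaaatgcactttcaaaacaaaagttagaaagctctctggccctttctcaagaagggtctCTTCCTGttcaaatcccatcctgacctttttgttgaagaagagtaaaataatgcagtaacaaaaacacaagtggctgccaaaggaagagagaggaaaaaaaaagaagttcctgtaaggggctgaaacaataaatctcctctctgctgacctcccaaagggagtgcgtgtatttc
Flt1: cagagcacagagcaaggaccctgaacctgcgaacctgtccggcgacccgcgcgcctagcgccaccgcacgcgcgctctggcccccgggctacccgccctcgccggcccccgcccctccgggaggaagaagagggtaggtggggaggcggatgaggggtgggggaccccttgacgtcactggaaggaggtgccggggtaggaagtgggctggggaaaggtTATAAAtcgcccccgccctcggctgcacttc
Flt4: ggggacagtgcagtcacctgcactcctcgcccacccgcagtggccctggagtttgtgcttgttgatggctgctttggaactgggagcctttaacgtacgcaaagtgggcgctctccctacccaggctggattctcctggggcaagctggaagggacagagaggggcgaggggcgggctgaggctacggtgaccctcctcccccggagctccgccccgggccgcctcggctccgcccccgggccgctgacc
The stretches lie at chr3:137340828-137341077 (plus strand), chr5:147726012-147726261 (minus strand) and chr11:49609429-49609678 (plus strand). In windows of 300 bases that reach past the start, CCGGAAG or CAGGAAG was found on either strand in 7 of 19 promoters (36.8%) of the 14 rule and identity genes with an entry, and in 20.9% of all 32851 promoters in the table. The 7 belonged to 6 genes. TATAAA was found in 13.6% of all promoters, and Flt4 held none of these words. A match is a description of the letters and not a binding site.

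On GRCm38, with the positions of the GENCODE M21 annotation, Plvap lies on chromosome 8 from 71497765 to 71511752, Klf2 on chromosome 8 from 72319033 to 72321656, Prox1 on chromosome 1 from 190118035 to 190170714, Hspa1a on chromosome 17 from 34969190 to 34972156, and Fxyd6 on chromosome 9 from 45370185 to 45396159. Counts were per gene, so they do not tell exons or isoforms apart.

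The PBS library held 38 of the barcodes among 4387 kept (0.866%, 0.614 to 1.19%) and the NaIO3 library 12 among 3944 (0.304%, 0.157 to 0.531%). They had 3018 to 15517 UMIs in PBS (median 4651.5) and 4849 to 18069 in NaIO3 (median 8209.5), 224164 and 123575 in all. Their median mitochondrial share was 2.79% in both libraries, against 7.71% and 8.68% over all kept barcodes. 24 barcode sequences occurred in both libraries, and 0 of the 50 were among them. None of the 50 was among the 171 PBS and 132 NaIO3 barcodes with the highest doublet scores. RPE barcodes (100 CP10K or more of the 5 RPE genes) numbered 3627 and 2270, with medians of 11491 and 9724.5 UMIs.

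At the limits of the rule, the lowest marker sum inside was 12.0 CP10K in PBS and 29.5 in NaIO3. The nearest NaIO3 barcode outside had 7.91 CP10K. In PBS 4 barcodes reached the sum from only 2 of the genes, the highest with 30.3 CP10K, and 3 more were over the RPE limit, the nearest at 102 CP10K against 68.0 inside.

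The endothelial label was checked on 20 genes that the rule did not use, among them the VEGF receptors Kdr and Flt1, the angiopoietin receptor Tek, the tight junction protein Cldn5 and the transcription factor Erg. All 20 were detected in each library. Their summed level ran from 51.2 to 200 CP10K in the PBS barcodes (median 98.4) and from 68.1 to 274 in the NaIO3 barcodes (median 78.3), against a mean of 4.17 and 1.55 CP10K over the whole libraries. No endothelial-marker barcode was near the library mean. Cldn5 had the highest pooled level of the 20, 2565 counts per 1e6 (CPM) of the summed PBS counts and 2913 CPM of the NaIO3 counts. Barcodes chosen in the same way by pericyte and smooth muscle genes held Cldn5 at 3.41 CPM and by fibroblast genes at 5.24 CPM in PBS. Cldn5 UMIs were found in 33 of 38 PBS barcodes (86.8%, 71.9 to 95.6%) and 12 of 12 NaIO3 barcodes (73.5 to 100%), and in 2.12% and 1.23% of the deeper RPE barcodes.

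Of 1980 genes with at least 20 counts in the PBS barcodes, 960 (48.5%) were 2-fold or more above the other PBS barcodes, and of 1095 such genes in NaIO3, 479 (43.7%) were. Nothing is read from these shares, since the rule used that contrast. All 18 identity genes with enough PBS counts were past that fold, with a median of 328-fold. Among the 20 genes with the best supported ratios over the other PBS barcodes were Ptprb, the endothelial tyrosine phosphatase (972-fold), Cldn5 (847-fold), Igfbp3, a binding protein for insulin-like growth factors (752-fold), Ccl21a, a chemokine of lymphatic endothelium (593-fold), and Ly6c1, a surface antigen (576-fold).

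The genes did not settle the word choroidal in the label for most of the 50. Genes of fenestrated capillaries, such as the choriocapillaris, led only 8 of them, all in PBS. Another 21 carried at least 3 UMIs of Prox1, Flt4, Mmrn1 and Ccl21a together. For barcodes outside the 8, the genes read here do not tell whether they came from the choroid. The 50 are therefore called endothelial-marker barcodes here, without a tissue of origin. They were divided by marker genes into sets, with limits that were chosen after their values had been seen, so the genes that define a set are descriptions of it. The capillary set had at least 20 CP10K of Plvap and a UMI of Rgcc, Igfbp3 or Esm1. The Prox1-Flt4 set had at least 3 UMIs of Prox1, Flt4, Mmrn1 and Ccl21a together. The barrier set had at least 5 UMIs from at least 2 of Abcb1a, Slco1a4, Itm2a and Spock2, and the Mgp set at least 30 CP10K of Mgp.

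The sets were clear of each other but for 1 NaIO3 barcode, which met both the barrier and the Mgp limits and was counted in the barrier set. Barcodes outside the Prox1-Flt4 set had at most 2 UMIs of its genes in PBS and 0 in NaIO3, against at least 5 and 3 inside. Ward clustering into 4 clusters on 820 genes that stand in no list put 21 of 21 barcodes of the Prox1-Flt4 set into 1 cluster with 1 other barcode, and 8 of 8 of the capillary set into a cluster of their own. The barrier and Mgp sets were split over the other 2 clusters.

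**Figure D1:**
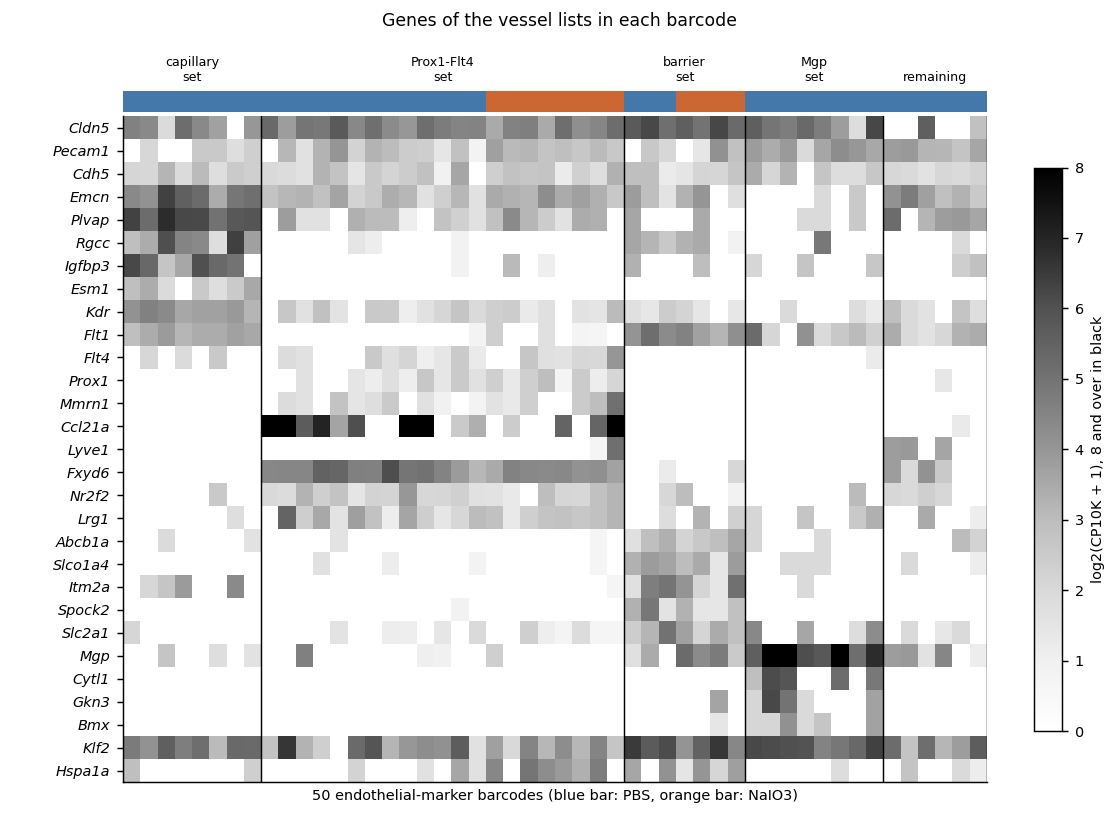
Level of 29 genes (rows) in each of the 50 endothelial-marker barcodes (columns), as log2(CP10K + 1) in grey with 8 and over in black; the bar on top is blue for PBS and orange for NaIO3, and lines divide the sets. Plvap is dark in the 8 capillary barcodes, of which 8 held Rgcc and 7 Igfbp3 at uneven levels, Fxyd6 in all 21 of the Prox1-Flt4 set, Mgp in the 8 of the Mgp set, and Cldn5 and Klf2 run across sets.

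The capillary set held 8 of the 38 PBS barcodes (21.1%, 9.55 to 37.3%) and 0 of 12 in NaIO3, which allows a share of up to 25%. Plvap ran from 31.5 to 112 CP10K in the 8 (median 64.2). The remaining PBS barcodes reached 35.8 CP10K and the NaIO3 barcodes 19.2 CP10K, so that high Plvap alone did not set the 8 apart in PBS. Pooled over the 8, Plvap stood at 6365 CPM against 492 CPM in the other 42 barcodes of both libraries. Rgcc, a regulator of the cell cycle that marks capillaries, stood at 2825 against 142 CPM, and Igfbp3 at 3085 against 94.7 CPM. Esm1, a secreted proteoglycan that VEGF induces, had 16 UMIs in 7 of the 8 and 0 elsewhere. In RPE barcodes 9.32% (PBS) and 6.43% (NaIO3) had a Plvap UMI, 1.85% and 1.81% an Rgcc UMI, and 0.17% and 0.04% an Esm1 UMI.

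Genes that the set's limits did not use were high in the same 8 barcodes. Kdr, the main VEGF receptor of blood endothelium, ran from 8.29 to 22.7 CP10K in them (median 13.2), and the highest NaIO3 barcode had 7.19. All 8 capillary barcodes were thus above all 12 NaIO3 barcodes for Kdr. The TGF-beta co-receptor Eng was at 1624 CPM, against at most 552 in any other set. The VEGF co-receptor Nrp1 was at 1299 against at most 368, and the membrane-remodelling ATPase Ehd4 at 1721 against at most 858.7. The lipid phosphatases Plpp1 and Plpp3 were at 3994 and 2176 CPM, against 331 and 202 elsewhere. Six3, a homeobox gene known from eye development, was at 1916 against 82.0 CPM (190 CPM over the whole PBS library), and the mucin-like Cd24a at 1266 against 44.2. Prox1, Mmrn1 and Fxyd6 had 0 UMIs in the 8.

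The Prox1-Flt4 set was the largest. It held 13 of 38 PBS barcodes (34.2%, 19.6 to 51.4%) and 8 of 12 NaIO3 barcodes (66.7%, 34.9 to 90.1%). The intervals overlap. With each barcode thinned to 3000 UMIs, 9 of 38 (23.7%) and 8 of 12 were found. Prox1 UMIs occurred in 9 of the 13 and 8 of the 8, with medians of 1.67 and 3.66 CP10K, and the ranges overlapped (0 to 5.24 and 0.66 to 6.74). In RPE barcodes 0.83% and 1.15% had a Prox1 UMI and 0.17% and 0.26% a Flt4 UMI.

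Genes outside the limits marked all 21. Fxyd6, a regulator of the sodium pump, ran from 7.79 to 66.0 CP10K (median 20.9), and stood at 2163 CPM against 144 in the other 29 barcodes. Pard6g, a cell polarity protein, and Nsg1, an endosomal protein, were found in 21 of 21. The glycosyltransferase Galnt1 and Trp53i11 were found in 20 of 21, and the matrix gene Adamtsl1 in 18. Abi3bp, another matrix gene, had 50 UMIs in 15 of the 21 and 0 in the other endothelial-marker barcodes, while PBS barcodes chosen by fibroblast genes held it at 351 CPM. Nr2f2, the transcription factor of venous and lymphatic identity, was in 20 of 21, though 40.9% of PBS RPE barcodes also carried it. Lrg1, a glycoprotein of venular endothelium, was in 20 of 21. Cldn5 was in 21 of 21, at 10.1 to 51.8 CP10K.

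The 2 VEGF receptors whose promoters are printed above differed in level between the sets. Flt1 UMIs were found in 5 of 21 barcodes of the Prox1-Flt4 set (36.0 CPM), in 8 of 8 of the capillary set (1007 CPM), in 7 of 7 of the barrier set (1834 CPM) and in 7 of 8 of the Mgp set (828 CPM). Flt4 was at 349 CPM in the Prox1-Flt4 set, which used it, and at 0 UMIs in the barrier set. Its 130 CPM in the capillary set rested on 2, 1 and 1 UMIs in single barcodes. Kdr was in 18 of 21, at 308 CPM. Vwf, the clotting factor of blood endothelium, was at 5.14 CPM in the Prox1-Flt4 set and at 935 CPM in the barrier set.

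Within the Prox1-Flt4 set the lymphatic genes were uneven. Ccl21a, whose reads may be shared with near-identical gene copies and whose level is therefore uncertain, had 0 UMIs in 7 of the 21 and up to 645 CP10K in another. Lyve1, the hyaluronan receptor of lymphatic capillaries, had 0 UMIs in the 13 PBS barcodes. A single NaIO3 barcode, the deepest with 18069 UMIs, held 61 of the 62 NaIO3 UMIs of Lyve1, 35 of 35 of the matrix protein Reln, 59 of 82 of Mmrn1, 27 of 46 of Flt4 and 824 of 959 of Ccl21a. That barcode had 0 UMIs of Plvap and of Hspa1a. The 7 other NaIO3 barcodes of the set had at most 11 UMIs of Mmrn1 and 5 of Flt4.

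The barrier set held 3 of 38 PBS barcodes (7.89%, 1.66 to 21.4%) and 4 of 12 NaIO3 barcodes (33.3%, 9.92 to 65.1%). Genes of the retinal vessel list that define it were Itm2a (2045 CPM), the organic anion carrier Slco1a4 (1023), the drug efflux pump Abcb1a (741) and the matrix proteoglycan Spock2 (688). RPE itself carries Slco1a4, in 92.3% and 86.3% of RPE barcodes, while Abcb1a UMIs were in 0.19% and 0.35% of them. Genes not used by the limits included Cldn5 at 4549 CPM, the glucose transporter Slc2a1 at 1393 against 172, and Bsg, the carrier partner basigin, at 8693 against 1185 CPM. Cldn5 ran from 33.5 to 72.2 CP10K in the 3 and from 30.6 to 74.3 in the 4. The libraries overlapped in this set. Pericyte RNA moved with 3 of the 7: Rgs5, a pericyte gene, had 60 UMIs in the set, 32 and 17 of them in 2 NaIO3 barcodes and 8 in a PBS barcode, and 0 in all other sets. Its part in the set's other levels was not tested.

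The Mgp set held 8 PBS barcodes (21.1%, 9.55 to 37.3%) and 0 NaIO3 barcodes, which again allows up to 25%. The 0 rests on the order of the sets, since a NaIO3 barcode with Mgp at 36.4 CP10K was counted in the barrier set. With each barcode thinned to 3000 UMIs, 8 of 38 and 1 of 12 (8.33%) were found. Mgp, an inhibitor of calcification that artery walls make, ran from 34.2 to 428 CP10K (median 89.0), and 28.9% of PBS RPE barcodes had a UMI of it. Cytl1, a small secreted protein, had 79 UMIs in 5 of the 8 and 0 elsewhere. Bmx, an arterial kinase, had 20 UMIs here and 1 elsewhere, and the gastrokine Gkn3 44 and 7. For both genes the UMIs elsewhere were in the same NaIO3 barcode of the barrier set, which had Mgp at 26.4 CP10K. Elastin (Eln) was at 889 against 111 CPM, endothelin (Edn1) at 583 against 25.4, and the flow-responsive transcription factor Klf2 at 5674 CPM. Rod photoreceptor RNA was highest in the same barcodes: Pde6g, a subunit of the rod phosphodiesterase, was at 1687 CPM against 117 elsewhere, and the summed rod genes ran from 7.79 to 326 CP10K (median 56.9) against 0 to 26.0 in the Prox1-Flt4 set. The part of that RNA in the set was not tested.

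The 6 remaining PBS barcodes (15.8%, 6.02 to 31.3%) met no limit. In 3 of them Lyve1 (7, 4 and 5 UMIs) occurred with Igfbp6, a growth factor binding protein (25, 13 and 28 UMIs). All 3 had 0 UMIs of Cldn5. The second also held 48.8 CP10K of Schwann cell genes, and the third 28.4 of macrophage genes and 19.9 of fibroblast genes. Igfbp6 had 2 UMIs in all other sets together. 8430408G22Rik, a FOXO target also named Depp1, had 96 UMIs in 3 of the 6, of which 70 were in 1 barcode, and stood at 2907 CPM against at most 159 CPM in any set.

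**Figure D2:**
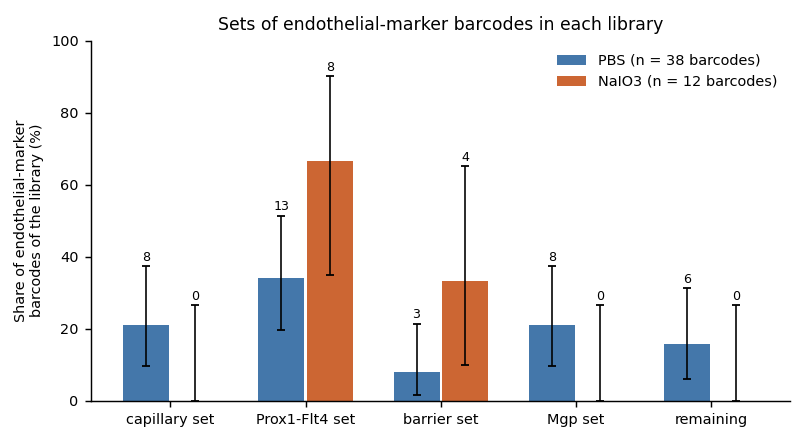
Share of the endothelial-marker barcodes of each library that fell into each set (y axis, %), blue for PBS (38 barcodes) and orange for NaIO3 (12), with exact 95% intervals for counting error as bars and the number of barcodes above. The capillary set, the Mgp set and the remaining barcodes were at 0 in NaIO3, and the Prox1-Flt4 set was at 34.2% and 66.7%.

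Over all endothelial-marker barcodes, the summed counts of the 2 libraries were compared as CPM. Of 1143 genes with at least 50 counts, 35 (3.06%) were 2-fold or more higher in NaIO3 and 39 (3.41%) were 2-fold or more lower. Scaled by TMM in place of total counts, which moved the median log2 ratio of all genes from 0.05 to -0.09, the split was 27 higher and 55 lower. Since sets of different genes made up the 2 libraries, the main ratios below are set beside those within the Prox1-Flt4 set, the only set with 8 or more barcodes in both.

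Genes of the capillary and Mgp sets led the lower genes. Plvap stood at 1280 CPM in the PBS barcodes against 526 CPM in the NaIO3 barcodes (ratio 0.41, 0.31 to 0.54). Within the Prox1-Flt4 set the order was the opposite, with a ratio of 1.61 (1.06 to 2.47), and Plvap ran there from 0 to 13.04 CP10K in PBS (median 2.13) and from 0 to 19.2 in NaIO3 (median 7.09). The ranges overlapped almost fully. Igfbp3 (0.16), Rgcc (0.18), Plpp3 (0.17), Cd24a (0.19), Six3 (0.27) and Ehd4 (0.36) were lower over all barcodes. In the Prox1-Flt4 set Igfbp3 had 1 and 6 UMIs and Rgcc 3 and 0, too few for a ratio to be read, and Ehd4 had a ratio of 1.27 (0.55 to 3.01). Mgp had a ratio of 0.18 (0.13 to 0.24), and Cytl1 had 79 UMIs in PBS and 0 in NaIO3, so that its ratio was at most 0.0689 with a floor of 3 counts over the group. Igfbp6 had 67 UMIs and 1 UMI (0.03, 0.0007 to 0.16). Rod genes stood among the lower genes too, with Pde6g at 0.06, Gnat1 at 0.13 and Rom1 at 0.14. Their level over the whole library was also lower in NaIO3, 254.5 and 81.2 CPM for Pde6g.

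Klf2, which laminar flow induces in endothelium, was lower both over all barcodes and within the Prox1-Flt4 set. It ran from 0 to 96.5 CP10K in PBS (median 34.3) and from 2.95 to 94.1 in NaIO3 (median 16.7), and the pooled ratio was 0.55 (0.47 to 0.63). In the Prox1-Flt4 set it ran from 0 to 96.5 CP10K in the 13 PBS barcodes (median 14.6) and from 2.95 to 21.3 in the 8 NaIO3 barcodes (median 10.1), with a ratio of 0.53 (0.42 to 0.67). The barcodes overlapped, and the PBS values reached further up. In RPE barcodes 9.40% and 10.8% had a Klf2 UMI.

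Hspa1a, the inducible chaperone of the heat shock response, was higher in NaIO3 over all barcodes and within the Prox1-Flt4 set. It was uneven over the sets, at 1023 CPM in the barrier set, 745 in the Prox1-Flt4 set, 130 in the capillary set and 30.7 in the Mgp set, and the last 2 had no NaIO3 barcode. In the barrier set, which was also found in both libraries, NaIO3 was not the higher by the median. Hspa1a ran there from 0 to 16.1 CP10K in the 3 PBS barcodes (median 10.98). In the 4 NaIO3 barcodes of that set it ran from 1.73 to 15.3 CP10K (median 7.88), and the ranges overlapped. Over all barcodes Hspa1a ran from 0 to 16.1 CP10K in PBS (median 0) and from 0 to 29.3 in NaIO3 (median 13.2). UMIs of it were in 12 of 38 PBS barcodes (31.6%, 17.5 to 48.7%) and 10 of 12 NaIO3 barcodes (83.3%, 51.6 to 97.9%), or 21.1% and 75% after thinning to 3000 UMIs. Pooled, it stood at 272 against 1230 CPM, with a ratio of 4.52 (3.34 to 6.19). In the Prox1-Flt4 set 4 of 13 and 6 of 8 barcodes had a UMI, the medians were 0 and 15.9 CP10K, the highest values 11.04 and 29.3, and the ratio 6.45 (4.04 to 10.8). The ranges overlapped through the 2 NaIO3 barcodes at 0 and another at 9.14 CP10K. Hspa1b, a near-identical copy whose reads may be shared with it, had a ratio of 4.78 (2.32 to 10.6), and the small heat shock gene Hspb1 of 2.04 (1.57 to 2.65). RPE barcodes also had Hspa1a more often in NaIO3, 11.6% and 32.0%, and its level over the whole library was 30.3 and 129 CPM, so the same order was seen outside the endothelial-marker barcodes.

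**Figure D3:**
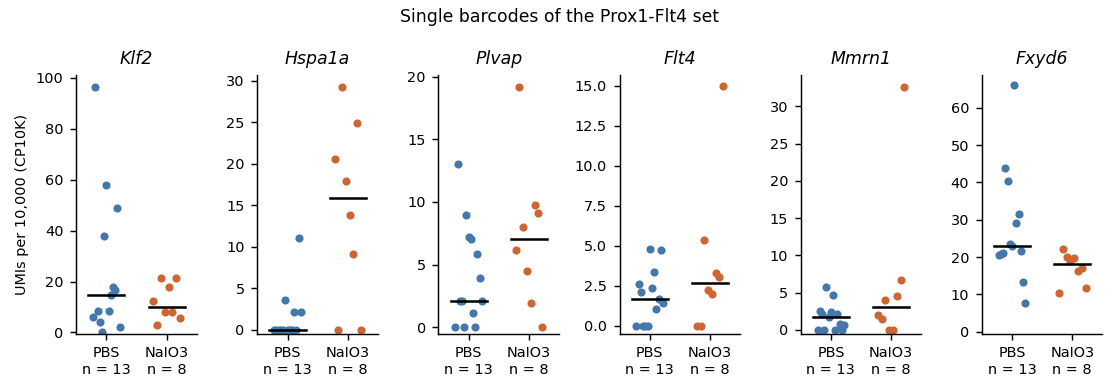
CP10K of 6 genes in each barcode of the Prox1-Flt4 set (points), blue for 13 PBS and orange for 8 NaIO3 barcodes, with the median as a line; each panel has its own y axis. Hspa1a medians were 0 and 15.9 and Klf2 medians 14.6 and 10.1, the deepest NaIO3 barcode is the highest for Flt4 and Mmrn1, and the barcodes of the 2 libraries overlap in each panel.

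Other higher genes marked the Prox1-Flt4 set. Mmrn1, a secreted multimerin, had a ratio of 9.30 (5.40 to 17.0) over all barcodes and 5.60 (3.25 to 10.2) within the set, and 3.05 (1.54 to 6.19) over all barcodes without the deepest NaIO3 barcode. For Flt4 these were 3.09 (1.88 to 5.17), 2.28 (1.35 to 3.98) and 1.495 (0.79 to 2.79). Both genes define the set, so their ratios within it are a description only. Medians in the set were 1.80 and 3.03 CP10K for Mmrn1, and 1.67 and 2.64 for Flt4. The ratios within the set include the deepest NaIO3 barcode, which held 59 of the 82 NaIO3 UMIs of Mmrn1 and 27 of 46 of Flt4. No ratio within the set was made without it. Lyve1 went from 7.03 to 0.13 without that barcode, the opposite direction. Igfbp5, a growth factor binding protein of the matrix, stood at 847.6 against 2209 CPM, with a ratio of 2.61 (2.16 to 3.15), of 2.14 (1.74 to 2.64) within the set, and of 3.04 without the deepest barcode. In the set its medians were 9.92 and 37.7 CP10K, and the ranges overlapped (0 to 31.8 and 0.55 to 72.2). Barcodes chosen by fibroblast genes in PBS held it at 4052 CPM. Pard6g had a ratio of 2.53, and of 1.53 (0.99 to 2.41) within the set. Fxyd6 stood at 1262 and 1295 CPM over all barcodes and was lower within the set, at 0.64 (0.52 to 0.79), with medians of 22.9 and 18.1 CP10K.

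Fth1, the heavy chain of the iron store ferritin, stood at 4274 CPM in PBS against 8602 CPM in NaIO3 (ratio 2.01, 1.84 to 2.20). Its medians were 36.2 and 42.0 CP10K over all barcodes, and 60.5 and 44.6 CP10K within the Prox1-Flt4 set, where NaIO3 was thus the lower by the median and the higher by pooled counts (1.403, 1.26 to 1.57). In 2 NaIO3 barcodes Fth1 was over 200 CP10K. The deepest of all barcodes was 1 of them, and it held 375 of the 752 NaIO3 UMIs of Fth1 in the set. Without that barcode the ratio over all was 1.53 (1.38 to 1.68). Stt3b, a subunit of the oligosaccharide transferase, had a ratio of 2.98 (1.82 to 4.95), with UMIs in 15 of 38 and 12 of 12 barcodes. The membrane protein Serinc3 had 2.36 (1.81 to 3.10) and the interferon-inducible Ifi27l2a 3.57 (2.58 to 4.98), within the set 2.31 and 2.37. Rgs5 (9.07) was the pericyte gene in the barrier barcodes.

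Lysosomal genes known from macrophages were higher together with their level in the whole NaIO3 library. The protease Ctsd had a ratio of 2.73 (2.21 to 3.37) in the endothelial-marker barcodes and 1995 and 7162 CPM in the libraries, Ctsb 2.39 with 474 and 2620 CPM, and Lgmn 2.72 with 100 and 398 CPM. All 3 proteases were at or below 1.25-fold of the other barcodes of their library in each case. Pglyrp1, an innate immune protein, had a ratio of 4.78 and library levels of 89.7 and 405 CPM. As a measure of free RNA, 30 genes of rods, surface epithelium and RPE stood at a median of 16.3% (PBS) and 14.0% (NaIO3) of their library mean in the endothelial-marker barcodes. With that share of the library mean subtracted from each gene, the log2 ratio of Ctsd was 1.24 (1.45 before), of Lgmn 1.35 (1.44), of Ctsb 0.72 (1.26), of Pglyrp1 2.27 (2.26) and of Hspa1a 2.15 (2.18). No macrophage gene was used for the share. Summed macrophage genes had a median of 16.8 CP10K in the NaIO3 barcodes against 75.1 in that library, and Ctsd stood at 0.26 of the other NaIO3 barcodes. The subtraction can thus take off too little macrophage RNA, and the part of it in the remaining ratios was not tested.

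The gene lists were read at 20 or more summed counts, where 180 of 3126 genes (5.76%) were 2-fold or more higher in NaIO3, 199 (6.37%) lower and the median log2 ratio was 0.05. Within the Prox1-Flt4 set 117 of 1718 (6.81%) were higher and 71 (4.13%) lower, with a median of 0.09. These are the backgrounds for all counts that follow.

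Lists of vessel type took the direction of the sets, but they share genes with the limits of the sets. Plvap, Rgcc and Igfbp3 are in the capillary list, Mgp in the arterial list, and Abcb1a, Slco1a4, Itm2a and Spock2 in the barrier list. Plvap, Rgcc, Igfbp3 and Mgp were each past 2-fold lower. The direction of these lists was thus partly fixed by the sets and is a description only. Of 13 capillary and choriocapillaris genes 3 had a ratio above 1 and 10 below, 1 and 5 past 2-fold, with a median log2 ratio of -0.65. Within the Prox1-Flt4 set 7 could be read and the median was 0.35, the opposite sign. Of 12 arterial genes 3 were above 1 and 9 below, 2 and 5 past 2-fold, with a median of -0.84, and of 5 in the set the median was 0.31. Sox17 (0.40) and Gja4 (0.32), a transcription factor and a gap junction protein of arteries, were lower, and the matrix genes Fbln5 (2.02) and Fbln2 (2.03) higher. All 6 lymphatic genes were above 1 and 5 past 2-fold, with a median of 2.22 and of 0.80 without the deepest NaIO3 barcode, and 4 of the 6 defined the set. Venous genes were even, 5 above and 5 below with a median of -0.01. Of 8 barrier genes 6 were above 1, with 0 past 2-fold either way and a median of 0.21.

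Genes that most endothelium shares lay on both sides of 1. Of 20 identity genes outside the rule 9 were above 1 and 11 below, with a median of -0.24 (0.19 in the set, on 17). Past 2-fold were Sox18, an endothelial transcription factor (2.15, 1.05 to 4.48), and on the lower side Eng (0.47, 0.31 to 0.69) and Clec14a, a C-type lectin of vessels (0.37, 0.21 to 0.62). In the Prox1-Flt4 set Eng was at 1.09 (0.59 to 2.01) and Clec14a at 0.82 (0.35 to 1.84). Of 18 receptors for VEGF, angiopoietin and BMP9, 6 were above and 12 below, with a median of -0.38, and 0.28 in the set. Kdr had a ratio of 0.59 (0.38 to 0.89), and of 0.89 (0.52 to 1.53) in the set. Tek was at 1.399 (0.81 to 2.38). Of 16 junction genes 10 were above 1 and 6 below, 0 were past 2-fold either way, and the median was 0.08, with Cldn5 at 1.14 (0.99 to 1.30).

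Basement membrane genes lay mostly above 1, 6 of 9 with a median of 0.69, and 7 of 8 in the set with a median of 0.57. The vessel collagens Col4a1 (1.81, 1.13 to 2.90) and Col4a2 (1.68, 0.93 to 3.01) and the laminin Lama4 (2.20, 1.14 to 4.26) were among them, and only Lama4 was past 2-fold. Caveolar genes were split, 6 of 10 above 1 (median 0.28), and in the set 9 of 9 were above 1 (median 0.42), with Cav1, the coat protein of caveolae, at 1.99 (1.29 to 3.12) and at 1.07 over all barcodes. Aqp1, a water channel, was at 4.37 (2.61 to 7.65) in the set, with 36 of its 77 NaIO3 UMIs in 1 barcode. Of 9 haemostasis genes 6 were above 1 (median 0.41), and Vwf was at 0.43 (0.24 to 0.73).

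Stress and immune lists were mixed. Of 8 heat shock genes 6 were above 1 and 3 past 2-fold (Hspa1a, Hspa1b and Hspb1), while Hsp90aa1 was at 0.62 (0.41 to 0.93), and the list's median was 0.38. Of 14 immediate early genes 2 were above 1 and 12 below, 4 past 2-fold lower, with a median of -0.45, and in the set 5 of 8 were above 1 with a median of 0.17. The nuclear receptor Nr4a1 (0.21, 0.06 to 0.52) and the RNA-binding Zfp36 (0.27, 0.09 to 0.65) were the lowest of them. Of 8 NRF2 targets 7 were above 1 (median 0.33). Past 2-fold were Fth1, which was at 1.53 without the deepest NaIO3 barcode, and the quinone reductase Nqo1 (4.92, 1.98 to 13.9, on 7 and 19 UMIs, 9 of the latter in 1 barcode). MHC class I genes were even, 6 of 12 above 1 with a median of -0.04, and of 6 interferon response genes 2 were above 1 (median -0.08). All 4 MHC class II genes were below 1 (median -2.88), and H2-Ab1, with 28 and 3 UMIs, was the most abundant of those past 2-fold. Of 8 endoplasmic reticulum chaperones 5 were above 1, with 0 past 2-fold either way (median 0.30).

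**Figure D4:**
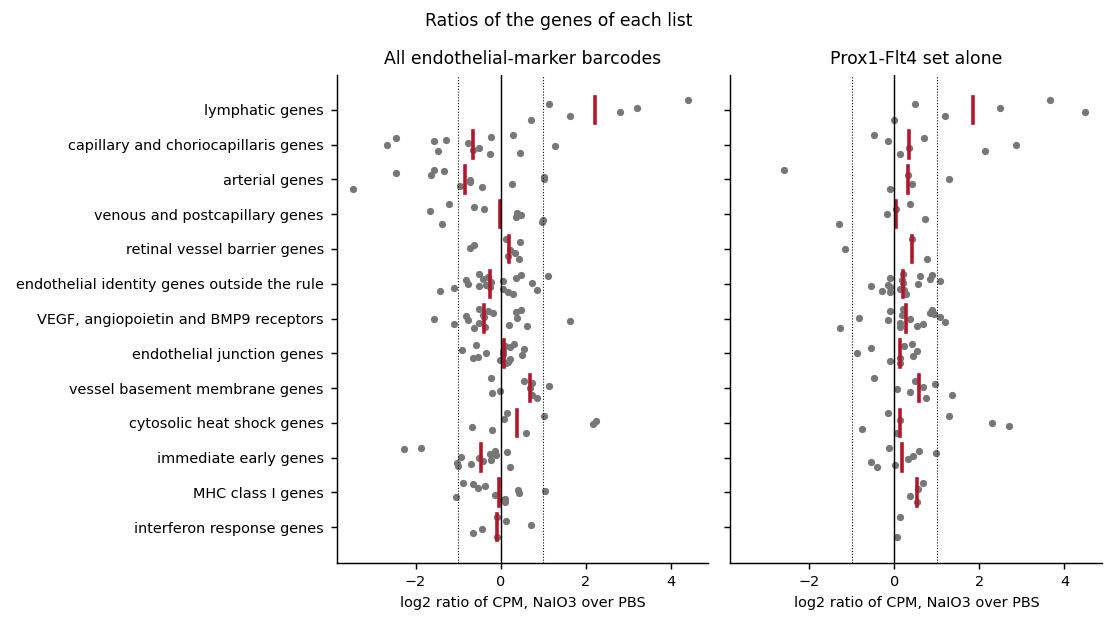
Log2 ratio of CPM, NaIO3 over PBS (x axis), of each gene with at least 20 counts (grey points) in 13 lists, with the list median as a red line and 2-fold as dotted lines; left, all 50 endothelial-marker barcodes, right, the 21 of the Prox1-Flt4 set. The capillary and arterial medians lie at -0.65 and -0.84 on the left and at 0.35 and 0.31 on the right.

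Markers of other cells moved with the library. Summed macrophage genes ran from 0 to 28.4 CP10K in PBS barcodes (median 1.19) and from 9.35 to 35.0 in NaIO3 barcodes (median 16.8), while the whole libraries stood at 9.12 and 75.1. Of 12 macrophage genes 7 were detected in PBS barcodes and 10 in NaIO3 barcodes, and Ptprc and Cx3cr1 were at 0 in both. Of the 6 with 20 or more counts, 5 were 2-fold or more higher in NaIO3, with a median log2 ratio of 4.58. Lyz2, the lysozyme of myeloid cells, had 3 and 68 UMIs, the latter in 12 of 12 barcodes, and the adaptor Tyrobp 1 and 38, again in 12 of 12. In the NaIO3 library they stood at 0.22 and 0.27 of the level of the other barcodes. Surface epithelium genes had medians of 0.589 and 13.8 CP10K, with libraries at 12.0 and 123. Rod genes had medians of 9.76 and 2.15. Pericyte genes reached 34.4 and 107 CP10K in single barcodes, with medians of 0.418 and 1.06, and fibroblast genes 44.2 and 11.6. Of the T and NK cell genes 0 were detected in PBS barcodes and 1 in NaIO3 barcodes. Leaving out every barcode with 10 CP10K or more from at least 3 genes of the pericyte, fibroblast, macrophage, melanocyte, rod or surface epithelium list would leave 19 PBS barcodes and 0 NaIO3 barcodes, so the comparison cannot be made without such RNA. With barcodes over 30 CP10K of any of these lists left out, 30 and 9 remained, 27 genes were 2-fold or more higher and 36 lower, and the log2 ratio was 2.00 for Hspa1a, -1.20 for Plvap and -2.28 for Mgp. The part of lower levels of such RNA in the ratios was not tested.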

How the data were processed

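Single-cell RNA libraries of 1 PBS pool and 1 NaIO3 pool were analysed from the UMI count matrices deposited by the authors, 27998 gene rows by 4618 and 4058 barcodes with 51055592 and 51168520 UMIs. Per the submitters' processing notes, Cell Ranger 3.0.2 and the mm10 build were used. For the annotation release and the calling of cells, nothing is given in the sources used here. Of the gene IDs, 27645 matched GENCODE M21.

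Barcodes with under 500 genes or over 25% mitochondrial counts were left out (231 and 114), which kept 4387 and 3944 with medians of 10386 and 10026.5 UMIs. CP10K is a gene's UMIs per 10000 of a barcode, and CPM its UMIs per 1e6 UMIs of summed barcodes. Each of the 2 groups is 1 library and barcodes are not replicates, so no test was run and ratios carry an exact conditional binomial interval of counting error at 95%. Shares have Clopper-Pearson intervals, and a 0 is read against 3 counts. Ratios were read at 50 or more summed counts for all genes and at 20 or more for lists. Barcodes were thinned to 3000 UMIs where shares are set against depth. Scrublet scores ranked doublets, with 0.8% per 1000 barcodes taken as doublets. Genes named from all genes were the first 20 over the other PBS barcodes and the first 15 higher and 15 lower in NaIO3, by the interval bound nearest to 1, without ribosomal, mitochondrial, haemoglobin and predicted genes and genes at the free RNA level in both libraries. Other genes come from 42 lists (463 of 464 genes matched) or were named for a set after their values were seen. 1 gene of these is not reported here. The members, lists and set limits were chosen with earlier results of these data known.

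Scripts were tested on simulated data. Python 3.11.15, numpy 2.4.6, pandas 2.3.3, scipy 1.17.1, scanpy 1.11.5 and matplotlib 3.10.9 were used, and edgeR 4.0.16 only for TMM scaling. Alternatives were other limits of the rule, other filters, TMM scaling and subtraction of free RNA. The Prox1-Flt4 set alone, leaving out the deepest NaIO3 barcode, leaving out barcodes over 30 CP10K of another list and the clustering were added after seeing the data.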

Additional observations from a re-analysis of the deposited data

How the results depend on the processing

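No paired analysis was possible because each group has 1 library. The PBS share of endothelial-marker barcodes (0.866%) was 0.570% with an RPE sum under 30 CP10K and 0.433% with barcodes carrying other markers left out, where the NaIO3 share was 0. Genes 2-fold or more higher numbered 58 with a marker sum of 5 or more, 180 of 3126 (5.76%) with 20 or more counts and 2804 with no filter beyond 1 count. The 2804 are not read as higher genes. A group at 0 was set to 3 counts, so genes with fewer than 3 UMIs in PBS and 0 in NaIO3 were counted among them. Genes 2-fold or more lower numbered 11 in the Prox1-Flt4 set alone, 60 with no RPE limit, 199 of 3126 (6.37%) with 20 or more counts and 1134 with no filter beyond 1 count. The main values were 35 higher and 39 lower of 1143 genes (3.06% and 3.41%). Settings differed in the number of genes read, so these counts cannot be set against each other. At 20 or more counts 1718 genes were read in the Prox1-Flt4 set, against 3126 over all barcodes. On the log2 scale, the sign was the opposite in the Prox1-Flt4 set alone for Plvap (0.69), the arterial list (0.31) and the capillary list (0.35), and for Ehd4 (0.35), Igfbp3 (2.71) and Six3 (1.13), whose intervals there include a ratio of 1, and Lyve1 was at -2.91 without the deepest NaIO3 barcode. The other 94 recomputed shares and counts stayed within their error or within 1.5 times. Of the single genes, list medians and shares with a UMI 707 did so, 39 moved further, and 7 are those with the opposite sign above. Medians of other lists also took the opposite sign in the Prox1-Flt4 set, those of the receptors (0.28), the immediate early genes (0.17) and the identity genes (0.19). The cause was not tested. With 12 NaIO3 barcodes, sets of up to 25% of that library's endothelial-marker barcodes could go unseen, and leaving a library out was not possible with 1 per group.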
